A study of Mus musculus with 26 samples.

Results

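Transcripts of 10 genes that write, remove or protect DNA methylation were followed through all 26 RNA-seq libraries of a study of mouse oocytes and preimplantation embryos. The genes were taken by symbol: Dnmt1, Dnmt3a, Dnmt3b, Dnmt3l, Tet1, Tet2, Tet3, Uhrf1, Dppa3 and Zfp57. All 10 were present in each of the 3 tables of length-normalised transcript abundance (TPM), which list 24412 gene symbols. TPM divides reads by transcript length and scales each library to the same total, so levels can be set side by side between genes, while sequencing depth is unknown.

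The libraries were polyA RNA of pooled C57BL/6J oocytes or embryos, in 13 groups of 2 pools. Maternal double-knockout embryos, abbreviated mDKO, came from females with the oocyte-expressed Zp3-Cre transgene and floxed Kdm3a and Kdm3b (Zp3-Cre; Kdm3af/f; Kdm3bf/f), and were conceived by IVF of those females' oocytes with sperm of wild-type males. By this design their oocytes should lack KDM3A and KDM3B, which remove mono- and dimethyl marks from lysine 9 of histone H3. Protein was not measured in these libraries. Each embryo also receives an intact paternal copy of both genes. The other embryos are labelled control, with no alleles stated. Uninjected mDKO and control groups were sampled as MII oocytes, at the early 2-cell stage (E2C) and at the late 2-cell stage (L2C); the L2C titles say DKO where the genotype label says maternal DKO, and the L2C labels describe no breeding. Injected E2C groups were mDKO embryos with Kdm3aWT, mDKO embryos with Kdm3aHA, mDKO embryos with mCherry and control embryos with mCherry. Injected 4-cell groups (4C) were wild-type embryos with Kdm3aWT, Kdm3aHA or mCherry. The labels do not say what HA stands for. Pools held 12 to 20 embryos, and 20 at L2C. No label ties a group's pools to different matings or collection days. The p-values therefore measure the spread between these pools, which may be technical.

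In mammals, DNMT1 copies CpG methylation onto new DNA strands, guided by UHRF1, which binds hemimethylated CpGs. DNMT3A and DNMT3B place methylation on unmethylated DNA, and DNMT3L, which has no catalytic activity of its own, stimulates them and is needed for the imprints laid down in growing oocytes. TET1, TET2 and TET3 oxidise methylcytosine, and TET3 supplied by the oocyte acts in the zygote. A pair of proteins stored in the oocyte oppose that loss: DPPA3 (also called STELLA or PGC7) shields the maternal genome from oxidation and restrains UHRF1 in oocytes, and the KRAB zinc finger protein ZFP57 recruits TRIM28 to methylated imprints and keeps them methylated.

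A library had between 7649 and 12396 genes at 1 TPM or more, and the 2 pools of a group correlated across genes at 0.968 to 0.995. Kdm3a and Kdm3b lay on the side their labels give at MII, at 0.725 and 0.718 TPM for Kdm3a and 1.75 and 1.87 TPM for Kdm3b in mDKO oocytes, against 8.08 and 8.83 TPM and 26.6 and 24.97 TPM in control oocytes. At L2C, when the embryo's own genome is active, Kdm3a was at 28.4 and 26.3 TPM in mDKO embryos, against 34.1 and 43.8 TPM in control embryos, and Kdm3b at 0.651 and 1.79 TPM in mDKO embryos, against 3.06 and 3.70 TPM in control embryos. With injected Kdm3aWT or Kdm3aHA the Kdm3a level was 2315 to 4122 TPM at E2C, injected RNA included. Of 8 oocyte markers, all 8 averaged at least 1 TPM in the MII, E2C and L2C groups, and their summed level was 38521 to 46792 TPM at MII. The 13 cumulus and granulosa markers, genes of the cells around the oocyte, summed to 954 and 1063 TPM in mDKO and 913 and 1055 TPM in control MII pools. Blood, sperm and fibroblast markers summed to at most 359.8, 52.5 and 3.32 TPM in any library.

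Across the uninjected control groups the 10 genes differed widely in level and in course. At MII the order of mean levels was Dppa3, Tet3, Uhrf1, Dnmt1, Zfp57, Dnmt3l, Dnmt3a, Dnmt3b, Tet2 and Tet1. Dnmt1 overlapped with both of its neighbours in that order, Uhrf1 and Zfp57, and no other neighbours overlapped. At E2C the order was Dppa3, Zfp57, Dnmt3l, Uhrf1, Dnmt1, Tet3, Dnmt3a, Dnmt3b, Tet1 and Tet2, with overlap of Uhrf1 and Dnmt1 only. At L2C it was Dppa3, Zfp57, Dnmt3l, Dnmt1, Dnmt3a, Uhrf1, Tet3, Tet1, Dnmt3b and Tet2, with overlap of Uhrf1 and Tet3 only. By E2C the TPM of Tet3, Uhrf1 and Dnmt1, the 3 most abundant of the stored enzymes, had dropped by more than 10-fold. Dppa3 and Zfp57 had instead risen in TPM. TPM is a share of each library's polyA RNA, so these values do not give the amount of RNA per oocyte or embryo. The MII libraries were made with another kit (TruSeq Stranded mRNA LT) than the E2C libraries (SMART-Seq mRNA LP or SMART-Seq v4; the labels do not tie kits to libraries), so stage and kit cannot be told apart in MII to E2C comparisons. As in any bulk pool, fewer cells with a transcript and less RNA per cell cannot be told apart.

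**Figure D1:**
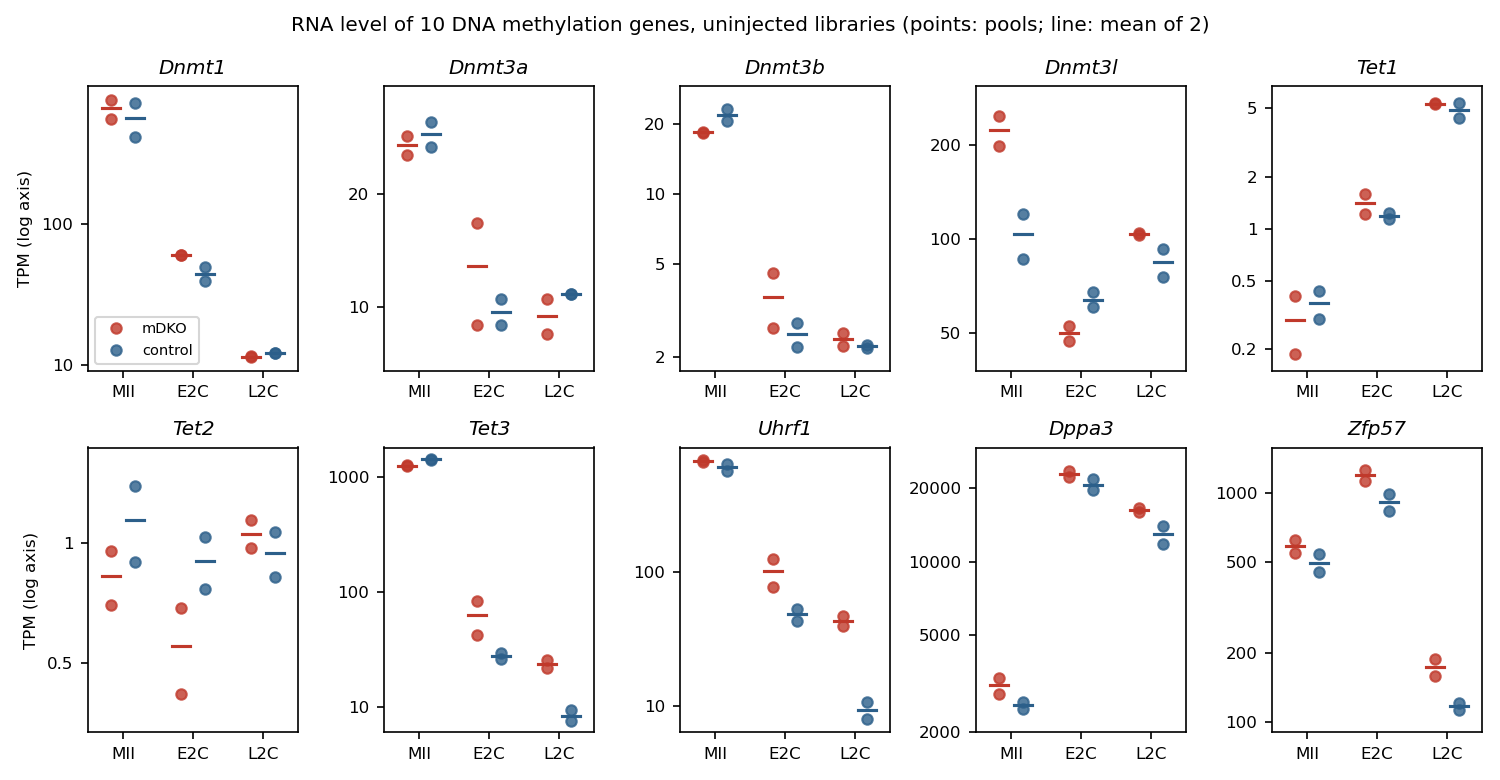
TPM (log axis, 1 panel per gene, axis limits differing between panels) of the 10 genes in uninjected mDKO (red) and control (blue) pools at MII, E2C and L2C; points are pools and lines are means of 2. Tet3, Uhrf1 and Dnmt1 are highest at MII, Dppa3 and Zfp57 at E2C and Tet1 at L2C, and the mDKO and control points of Tet3 and Uhrf1 separate at E2C and L2C.

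Tet3 had the steepest decline. Its level in control pools was 1451 and 1403 TPM at MII, 29.3 and 25.8 TPM at E2C and 7.43 and 9.27 TPM at L2C, so the MII mean was 171-fold the L2C mean. Uhrf1 was at 649 and 577 TPM at MII, 53.4 and 43.5 TPM at E2C and 7.93 and 10.7 TPM at L2C in control pools. Dnmt1 was at 722 and 416 TPM at MII, 49.7 and 39.6 TPM at E2C and 12.2 and 12.2 TPM at L2C. No pool of a later stage reached any pool of an earlier one for these 3 genes.

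The de novo enzymes followed another course. Dnmt3b had 20.5 and 23.2 TPM at MII, 2.81 and 2.20 TPM at E2C and 2.26 and 2.18 TPM at L2C in control pools, and Dnmt3a 31.1 and 26.8, 10.5 and 8.96, and 10.8 and 10.9 TPM at the same stages. Their partner Dnmt3l was at 120 and 85.9 TPM at MII, 67.3 and 60.2 TPM at E2C and 75.1 and 92.6 TPM at L2C. Both catalytic genes dropped once and then stayed within overlapping or neighbouring values, and the cofactor kept most of its level. Tet1 ran the other way, at 0.437 and 0.301 TPM at MII, 1.24 and 1.14 TPM at E2C and 4.40 and 5.39 TPM at L2C, and Tet2 stayed between 0.766 and 1.39 TPM.

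The protectors took another course than the enzymes. Dppa3 was at 2482 and 2649 TPM at MII, 19715 and 21744 TPM at E2C and 14013 and 11852 TPM at L2C in control pools, which placed it 39th and 36th among all genes of its library at MII and 4th in both E2C pools. It then made up 1.97% and 2.17% of all TPM. Zfp57 was at 540.1 and 454 TPM at MII, 988 and 836 TPM at E2C and 113 and 122 TPM at L2C.

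In tests with limma on log2(TPM + 1) over all genes, with Benjamini-Hochberg adjustment and calls at an adjusted p under 0.05, 3 of the 10 genes were called higher and 6 lower at E2C than at MII in control, where 35.1% of all 14316 genes tested were called higher and 37% lower. The rises were 3.01 ± 0.10 for Dppa3 (log2 difference ± SE, adjusted p = 1.22e-09), 0.87 ± 0.14 for Zfp57 (adjusted p = 1.41e-04) and 0.68 ± 0.20 for Tet1 (adjusted p = 0.00861). Tet1 was at 0.437 and 0.301 TPM in control MII pools, and below 1 TPM in the mDKO ones. It passed the filter only through the later stages, where it was higher, so its rise is a description. The falls were -5.65 ± 0.25 for Tet3, -3.64 ± 0.22 for Uhrf1, -3.60 ± 0.23 for Dnmt1, -2.71 ± 0.22 for Dnmt3b, -1.48 ± 0.25 for Dnmt3a and -0.67 ± 0.18 for Dnmt3l (adjusted p = 0.00612). Size-factor scaling moved the median of all genes by 0.17 on the log2 scale. After it the falls were -5.31 for Tet3, -3.30 for Uhrf1 and -3.26 for Dnmt1, while Dnmt3l stood at -0.33 with adjusted p = 0.0980. The call of Dnmt3l was also lost without control MII replicate 1 (-0.43, adjusted p = 0.0710) and that of Tet1 without control MII replicate 2 (adjusted p = 0.0562). Between the same groups, cumulus and granulosa markers summed to 116 and 112 TPM at E2C, with Inha and Amh at 0, and 913 and 1055 TPM at MII, and oocyte markers to 5955 and 6266 TPM at E2C and 39909 and 38521 TPM at MII. The part of these levels in the differences was not tested.

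Between E2C and L2C in control, 1 gene was called higher and 5 lower, against 35.5% of all genes higher and 30.1% lower. Tet1 rose by 1.43 ± 0.20 (adjusted p = 6.15e-05). Zfp57 had the largest fall of the 10 at this step, -2.94 ± 0.14 (adjusted p = 2.01e-08), followed by Uhrf1 (-2.26 ± 0.22), Dnmt1 (-1.78 ± 0.23), Tet3 (-1.62 ± 0.25) and Dppa3 (-0.68 ± 0.10). Dnmt3a, Dnmt3b, Dnmt3l and Tet2 did not pass, with log2 differences of 0.15, -0.12, 0.39 and 0.03. No source used here gives the L2C kit, so stage and kit cannot be told apart here either.

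Whether the oocyte already differed was asked at MII. Of the 8 genes tested there, Dnmt3l, the cofactor that oocytes need for imprints, was called, and it was higher: 247 and 198 TPM in mDKO oocytes, against 120 and 85.9 TPM in control oocytes. Both mDKO pools lay above both control pools, the mean was 2.16-fold, and the log2 difference was 1.11 ± 0.19 (limma, adjusted p = 0.0436). Among all 10765 genes tested, 0.845% were called higher and 3.41% lower, 91 and 367 genes, or 110 and 256 after size-factor scaling. The call of Dnmt3l was lost without mDKO replicate 1 (adjusted p = 0.187), mDKO replicate 2 (0.0784) or control replicate 2 (0.0923), and the difference then lay between 0.87 and 1.27.

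The other 7 tested genes did not pass at MII. Tet3 was at 1239 and 1285 TPM in mDKO oocytes, against 1451 and 1403 TPM in control oocytes, a difference of -0.18 with a 95% interval of -0.33 to -0.02 (adjusted p = 0.163). Dppa3 was at 3337 and 2856 TPM in mDKO oocytes, against 2482 and 2649 TPM in control oocytes, 0.27 with an interval of 0.04 to 0.50 (adjusted p = 0.158). In both genes the pools of the 2 genotypes did not overlap. Uhrf1 had 686 and 666 TPM in mDKO and 649 and 577 TPM in control oocytes, and Zfp57 had 627 and 549 TPM in mDKO and 540.1 and 454 TPM in control oocytes, both with every mDKO pool higher. Dnmt1 overlapped, at 766 and 560.4 TPM in mDKO and 722 and 416 TPM in control oocytes. Dnmt3a had 28.7 and 25.4 TPM in mDKO and 31.1 and 26.8 TPM in control oocytes, and Dnmt3b had 18.5 and 18.3 TPM in mDKO and 20.5 and 23.2 TPM in control oocytes. Tet1 and Tet2, at most 0.437 and 1.39 TPM, were too low to be tested.

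At E2C, after the first cleavage, the mDKO embryos held more Tet3 and Uhrf1 RNA. Tet3 was at 83.1 and 42.2 TPM in mDKO embryos, against 29.3 and 25.8 TPM in control embryos, and Uhrf1 at 126 and 77.7 TPM in mDKO embryos, against 53.4 and 43.5 TPM in control embryos. The mDKO pools lay above the control pools in both genes and differed from each other by more than the control pools did. Tet3 rose by 1.08 ± 0.29 (limma, adjusted p = 0.0393), 2.27-fold on the means, and Uhrf1 rose by 1.02 ± 0.23 (adjusted p = 0.0235), 2.10-fold. They were the 2 of 9 tested genes that were called, where 5.38% of all 11140 genes were called higher and 8.99% lower. Both calls were lost without control replicate 1 (adjusted p = 0.137 for Tet3 and 0.0771 for Uhrf1) and without control replicate 2 (0.234 and 0.200), with differences of 0.88 to 1.17. The calls held without either mDKO pool, and the sizes moved more: without mDKO replicate 1 they were 0.60 for Tet3 and 0.68 for Uhrf1, and without mDKO replicate 2 they were 1.56 and 1.36.

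The protectors were less separated at E2C. Zfp57 was at 1128 and 1263 TPM in mDKO embryos, against 988 and 836 TPM in control embryos, 0.39 ± 0.12 with adjusted p = 0.0710, or 0.0346 with replicate number as a block and 0.00318 without mDKO replicate 1. Dppa3 was at 22301 and 23544 TPM in mDKO embryos, against 19715 and 21744 TPM in control embryos, 0.15 with an interval of -0.06 to 0.35. Dnmt1 had 60.7 and 60.5 TPM in mDKO and 49.7 and 39.6 TPM in control embryos (0.44 ± 0.17, adjusted p = 0.131). Dnmt3l, which was higher in mDKO oocytes, had here 52.3 and 47.1 TPM in mDKO and 67.3 and 60.2 TPM in control embryos, every mDKO pool lower, at -0.35 ± 0.16 (adjusted p = 0.191). Dnmt3a and Dnmt3b were each higher in mDKO replicate 1 (16.8 and 4.57 TPM) than in mDKO replicate 2 (8.96 and 2.66 TPM) and overlapped with control at 10.5 and 8.96 TPM for Dnmt3a and 2.81 and 2.20 TPM for Dnmt3b. Without mDKO replicate 2, Dnmt3a was called at 0.73 (adjusted p = 0.0217). Tet1 had 1.22 and 1.58 TPM in mDKO and 1.24 and 1.14 TPM in control embryos. Tet2, not tested, had 0.688 and 0.420 TPM in mDKO and 1.03 and 0.766 TPM in control embryos.

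At L2C Uhrf1 and Tet3 were again higher in mDKO embryos, and the protectors were higher as well. Uhrf1 was at 39.7 and 47.2 TPM in mDKO embryos, against 7.93 and 10.7 TPM in control embryos. It rose by 2.11 ± 0.20 (limma, adjusted p = 4.26e-04), 4.65-fold on the means, and 99.1% of all genes tested had a lower log2 difference. Tet3 was at 21.8 and 25.5 TPM in mDKO embryos, against 7.43 and 9.27 TPM in control embryos, and rose by 1.40 ± 0.20 (adjusted p = 0.00167), 2.83-fold. Zfp57 was at 159.7 and 188 TPM in mDKO embryos, against 113 and 122 TPM in control embryos, and rose by 0.56 ± 0.13 (adjusted p = 0.0127). Dppa3 was at 15997 and 16580 TPM in mDKO embryos, against 14013 and 11852 TPM in control embryos, and was called at 0.34 ± 0.11 (adjusted p = 0.0488). All mDKO pools lay above all control pools in these 4 genes.

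These 4 of 10 were read against 19.1% of all 12606 genes called higher and 23.3% lower at L2C. The calls of Uhrf1 and Tet3 held without each library in turn. That of Zfp57 was lost without mDKO replicate 2 (adjusted p = 0.0947) and without a trend in the variance (0.0553). That of Dppa3 was lost without mDKO replicate 1 (0.0523), mDKO replicate 2 (0.0952) or control replicate 2 (0.22 with adjusted p = 0.180), after size-factor scaling (0.234) and with replicate number as a block (0.0793).

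No gene of the DNMT family was called at L2C. Dnmt1 was at 11.5 and 11.3 TPM in mDKO embryos, against 12.2 and 12.2 TPM in control embryos (-0.09, interval -0.51 to 0.34). Dnmt3l had 102 and 104 TPM in mDKO and 75.1 and 92.6 TPM in control embryos, every mDKO pool higher (0.31, interval -0.03 to 0.64, adjusted p = 0.121; 0.0405 without control replicate 2). Dnmt3a had 8.48 and 10.6 TPM in mDKO and 10.8 and 10.9 TPM in control embryos, and Dnmt3b had 2.22 and 2.54 TPM in mDKO and 2.26 and 2.18 TPM in control embryos. Tet1, the family member that was rising, had 5.27 and 5.35 TPM in mDKO and 4.40 and 5.39 TPM in control embryos, and Tet2 had 0.972 and 1.14 TPM in mDKO and 0.821 and 1.07 TPM in control embryos.

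The summed level of the listed oocyte markers was higher in mDKO pools at all 3 stages. Such a sum follows its most abundant genes, and not all oocyte RNA went that way. Among all genes at MII, 91 were called higher and 367 lower in mDKO oocytes. The 8 oocyte markers summed to 45813 and 46792 TPM in mDKO and 39909 and 38521 TPM in control oocytes at MII, where Tet3 and Uhrf1 were not called. They summed to 10358 and 9418 TPM in mDKO and 5955 and 6266 TPM in control embryos at E2C, and to 7897 and 8112 TPM in mDKO and 3403 and 3070.0 TPM in control embryos at L2C. The 13 cumulus and granulosa markers summed to 195 and 235 TPM in mDKO and 116 and 112 TPM in control embryos at E2C, and to 109 and 115 TPM in mDKO and 57.7 and 65.8 TPM in control embryos at L2C. In control L2C pools 6 of those 13 were at 0, among them Cyp11a1, Inha and Fshr, and in mDKO L2C pools 1 was, Ptx3. Early 2-cell markers summed over the 6 listed in the tables to 2488 and 2006 TPM in mDKO and 793 and 595 TPM in control embryos at L2C, and to 264 and 297 TPM in mDKO and 1175 and 1706 TPM in control embryos at E2C. Sperm markers summed to 13.7 and 13.4 TPM in mDKO and 37.9 and 52.5 TPM in control embryos at E2C. Of these 6, Prm1 and Tnp2 were at 0 in the mDKO pools, and Prm1, Tnp2 and Smcp in the control pools. Blood markers summed to 67.4 and 291 TPM in mDKO and 308 and 359.8 TPM in control embryos at L2C. Of these 7, Hbb-bs was at 0 in the mDKO pools, and Hbb-bs, Hbb-bt and Ptprc in the control pools. The part of these levels in the differences of Tet3, Uhrf1, Dppa3 and Zfp57 was not tested.

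**Figure D2:**
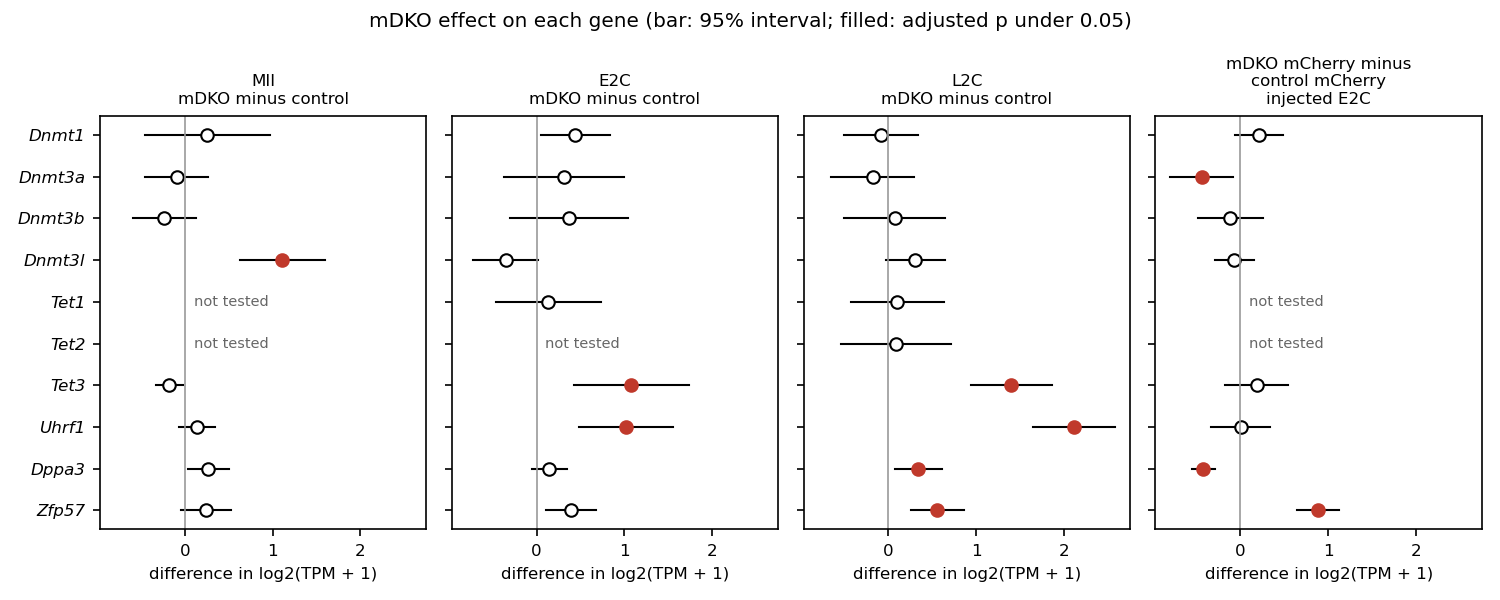
Difference in log2(TPM + 1) of each gene, mDKO minus control, at MII, E2C and L2C without injection and at E2C after mCherry injection; bars are 95% intervals from limma and filled points have an adjusted p under 0.05. Dnmt3l is filled at MII (1.11), Tet3 and Uhrf1 at E2C (1.08 and 1.02) and L2C (1.40 and 2.11), and Zfp57 and Dppa3 at L2C (0.56 and 0.34). In injected embryos Zfp57 is filled above 0 (0.88) and Dppa3 and Dnmt3a below it (-0.42 and -0.44).

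Tet3 and Uhrf1 are the 2 members called together at E2C and L2C, and the sequence just before the RefSeq start of each is shown for its CpG content, the substrate of the enzymes described here. Each is the 250 bases before the most upstream start in the RefSeq table for GRCm38.p6 (the assembly of mm10), read 5′ to 3′ on the gene's strand, with every CG in capitals. The Tet3 window is at chr6:83441679-83441928 on the minus strand, inside the gene's annotated span (83362373 to 83457208), and the Uhrf1 window at chr17:56303087-56303336 on the plus strand ends at the base before the gene's first annotated base.
Tet3: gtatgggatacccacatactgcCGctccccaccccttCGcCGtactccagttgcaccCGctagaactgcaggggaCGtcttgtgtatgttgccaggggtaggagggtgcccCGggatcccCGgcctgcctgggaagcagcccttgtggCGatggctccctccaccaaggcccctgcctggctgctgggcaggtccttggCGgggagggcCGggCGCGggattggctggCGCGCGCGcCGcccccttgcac
Uhrf1: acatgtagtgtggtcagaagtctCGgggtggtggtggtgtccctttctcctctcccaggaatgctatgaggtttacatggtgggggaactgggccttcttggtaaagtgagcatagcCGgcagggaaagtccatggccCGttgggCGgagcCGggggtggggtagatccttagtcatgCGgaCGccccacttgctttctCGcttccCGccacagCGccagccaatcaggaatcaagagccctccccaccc
The Tet3 window holds 17 CG and the Uhrf1 window 10. Among 32851 such windows, 23.5% hold at least 17 and 37.8% at least 10, so both counts are common ones. In windows of 300 bases that run on 50 bases past the start, the median of all is 7 CG and 94.6% hold 1 or more. There, 9 of the 10 genes have a window, and their counts spread from 2 CG at the most upstream start of Dnmt1 to 57 at that of Tet2, with 46 and 47 at the first 2 starts of Dnmt3a and 3 to 6 at the 3 starts of Dnmt3l. These counts describe the letters only; methylation was not measured in these libraries.

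Differences between stages in the size of the mDKO effect were tested as interaction contrasts over the 12 uninjected libraries. From MII to E2C the mDKO effect on Dnmt3l went down by 1.46 ± 0.26 on the log2 scale (limma, adjusted p = 0.0117), the 1 gene of 10 called, where 1.72% of all genes were called higher and 2.16% lower. The call was lost without mDKO MII replicate 1 (adjusted p = 0.0516). Tet3 had 1.26 ± 0.35 (adjusted p = 0.0795; 0.0431 after size-factor scaling and 0.00373 without mDKO E2C replicate 2). Uhrf1 had 0.88 ± 0.31 (adjusted p = 0.158; 0.0295 without that library). From E2C to L2C the mDKO effect on Uhrf1 went up by 1.09 ± 0.31 (adjusted p = 0.0253), again 1 gene of 10, where 13.2% of all genes were called higher and 12.5% lower (1889 and 1789 genes, or 1578 and 2256 after size-factor scaling). That call was lost without mDKO L2C replicate 2 (0.0903), control L2C replicate 1 (0.0887), mDKO E2C replicate 2 (0.0636) or control E2C replicate 1 (0.0911). Over the same step Tet3 had 0.32 with an interval of -0.45 to 1.09, and without mDKO E2C replicate 1 it had 0.80 (adjusted p = 0.0254). Without mDKO E2C replicate 2, Dnmt3a was called at -0.92 (adjusted p = 0.0318).

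Set within each genotype, the Uhrf1 mean at MII was 15.6-fold its L2C mean in mDKO and 65.6-fold in control, and that of Tet3 was 53.4-fold in mDKO and 171-fold in control. For Dnmt1 the same ratio was 58.0 in mDKO and 46.7 in control.

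The make-up of each enzyme family shifted with stage and, in places, with genotype. Dnmt1 made up 69.9% to 72.3% of DNMT TPM in mDKO oocytes and 75.4% to 80.8% in control oocytes, with Dnmt3l at 23.3% to 24.7% in mDKO and 13.5% to 15.6% in control. By L2C Dnmt3l made up 81.0% to 82.2% in mDKO embryos and 74.8% to 78.6% in control embryos, and Dnmt1 8.80% to 9.23% in mDKO and 10.3% to 12.2% in control. Tet3 held 99.9% of TET TPM in each MII pool. At L2C it held 77.8% and 79.7% in mDKO embryos, against 58.7% and 58.9% in control embryos, with Tet1 at 18.8% and 16.7% in mDKO and 34.8% and 34.3% in control. In the 4C embryos Tet1 held 86.1% to 94.9%. These shares are ratios within a library, and a shift shows unequal change rather than which gene moved.

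**Figure D3:**
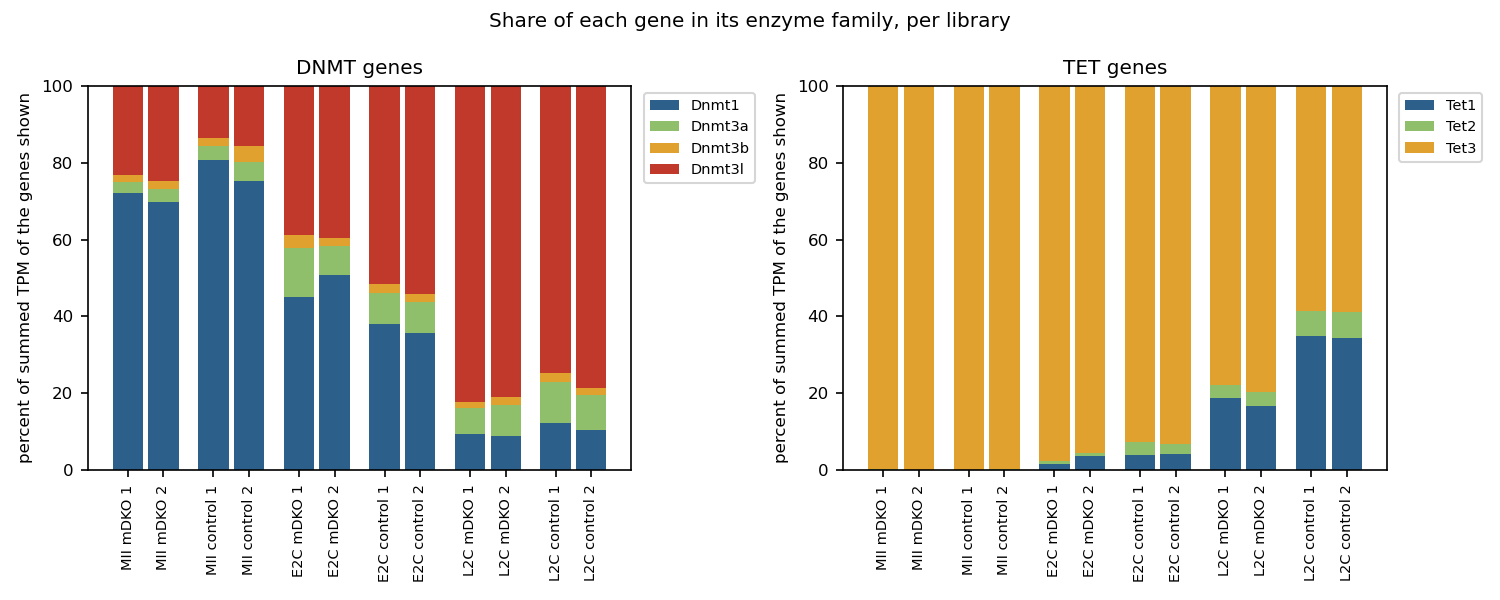
Percent of summed TPM held by each DNMT gene (left) and each TET gene (right) in every uninjected library, mDKO before control within a stage. Dnmt1 gives way to Dnmt3l between MII and L2C, and Tet3 holds 77.8% and 79.7% of TET TPM in mDKO L2C pools, against 58.7% and 58.9% in control L2C pools.

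The mCherry-injected E2C embryos repeat the mDKO and control comparison in separate libraries. There neither Tet3 nor Uhrf1 was called. Tet3 was at 25.0 and 25.3 TPM in mDKO embryos, against 21.8 and 22.1 TPM in control embryos, 0.19 with an interval of -0.17 to 0.54 (limma, adjusted p = 0.353). Uhrf1 was at 36.9 and 39.7 TPM in mDKO embryos, against 40.0 and 36.3 TPM in control embryos, 0.01 with an interval of -0.33 to 0.34 (adjusted p = 0.977). The uninjected differences were 1.08 with an interval of 0.43 to 1.74 for Tet3 and 1.02 with an interval of 0.49 to 1.55 for Uhrf1. The intervals of the 2 experiments overlap for Tet3 and do not for Uhrf1. The difference between the experiments was not tested, because the tables were made separately. The oocyte markers summed to 11317 and 11139 TPM in mDKO mCherry and 7382 and 7804 TPM in control mCherry embryos.

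Zfp57 was the gene that rose in injected mDKO embryos, at 2068 and 2003 TPM in mDKO mCherry, against 1238 and 983 TPM in control mCherry embryos (0.88 ± 0.10, adjusted p = 2.46e-04), 1.83-fold on the means. Dppa3 fell, at 17510.3 and 17997 TPM in mDKO mCherry, against 23740.2 and 23848 TPM in control mCherry embryos (-0.42 ± 0.06, adjusted p = 5.15e-04). Dnmt3a fell, at 7.76 and 8.07 TPM in mDKO mCherry, against 10.2 and 12.1 TPM in control mCherry embryos (-0.44 ± 0.16, adjusted p = 0.0467). These 3 of 8 tested genes stand beside 26.9% of all 10960 genes called higher and 20% lower. The calls of Zfp57 and Dppa3 held without each library in turn. That of Dnmt3a was lost without mDKO mCherry replicate 1 (0.189) or 2 (0.143), without control mCherry replicate 1 (0.0560) or 2 (0.221), and with a pseudocount of 0.1 (0.0509). Cumulus and granulosa markers summed to 358 and 348 TPM in mDKO mCherry and 85.4 and 77.6 TPM in control mCherry embryos, with Foxl2, Amh and Ptx3 at 0 in the mDKO pools and those 3, Inhba and Inha at 0 in the control pools. Their part in these differences was not tested.

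The remaining genes did not pass in this comparison. Dnmt1 had 63.5 and 64.5 TPM in mDKO mCherry and 52.4 and 58.1 TPM in control mCherry embryos (0.21, interval -0.06 to 0.48). Dnmt3b had 2.14 and 2.43 TPM in mDKO mCherry and 2.49 and 2.61 TPM in control mCherry embryos, and Dnmt3l had 67.2 and 70.3 TPM in mDKO mCherry and 69.6 and 74.7 TPM in control mCherry embryos. Tet1 and Tet2 were below 1 TPM in all 8 injected E2C libraries and were not tested.

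Kdm3a RNA given back to mDKO embryos was set against mCherry in mDKO embryos. With Kdm3aWT, Dnmt1 was at 28.1 and 33.7 TPM, against 63.5 and 64.5 TPM with mCherry, and fell by 1.03 ± 0.12 (limma, adjusted p = 0.00156). Its Kdm3aWT mean was 0.483 times the mCherry mean, and both pools lay below both control mCherry pools (52.4 and 58.1 TPM). Zfp57 was at 1439 and 1341 TPM with Kdm3aWT, against 2068 and 2003 TPM with mCherry (-0.55 ± 0.10, adjusted p = 0.0125), and both Kdm3aWT pools stayed above the control mCherry pools (1238 and 983 TPM). Dppa3 was at 21585 and 23574 TPM with Kdm3aWT, against 17510.3 and 17997 TPM with mCherry, and rose by 0.35 ± 0.06 (adjusted p = 0.00701). These comparisons share their mDKO mCherry pools with the comparison to control, so a value that happens to lie high or low there moves both. Cumulus and granulosa markers summed to 254 and 248.6 TPM with Kdm3aWT and 235 and 250.04 TPM with Kdm3aHA, against 358 and 348 TPM with mCherry. Of the 13, Inha, Foxl2 and Amh were at 0 with Kdm3aWT, these and Amhr2 and Ptx3 with Kdm3aHA, and Foxl2, Amh and Ptx3 with mCherry. Blood markers summed to 0.315 and 1.38 TPM with Kdm3aWT and 2.07 and 0.0611 TPM with Kdm3aHA, against 32.7 and 18.8 TPM with mCherry. Of the 7 blood markers, 1 averaged at least 1 TPM with mCherry and 0 with Kdm3aWT or Kdm3aHA. Hbb-bs and Hbb-bt were at 0 in each of these groups. Oocyte markers summed to 11094 and 10357 TPM with Kdm3aWT and 9693 and 11140.3 TPM with Kdm3aHA, against 11317 and 11139 TPM with mCherry. Their part in the differences between constructs was not tested.

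Among all genes, 0.949% were called higher and 10.8% lower with Kdm3aWT, and the median of all genes was -0.19. Size-factor scaling moved that median by 0.19 and changed the calls of 104 higher and 1184 lower genes to 331 and 556. After it Dnmt1 stood at -0.80 (adjusted p = 0.00340), Dppa3 at 0.58 (adjusted p = 0.00297) and Zfp57 at -0.32 (adjusted p = 0.153). The Dnmt1 call held without each library in turn, and those of Dppa3 and Zfp57 were lost without mDKO mCherry replicate 1 (0.100 and 0.126) or replicate 2 (0.0580 and 0.0852). Tet3 had 17.9 and 24.8 TPM with Kdm3aWT and 25.0 and 25.3 TPM with mCherry (-0.24 ± 0.16; adjusted p = 0.0471 without Kdm3aWT replicate 2), and Uhrf1 had 35.4 and 45.3 TPM with Kdm3aWT and 36.9 and 39.7 TPM with mCherry. Dnmt3a, Dnmt3b and Dnmt3l had log2 differences of -0.25, 0.19 and 0.07 and did not pass.

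With Kdm3aHA, Dppa3 was the 1 gene of 8 called. It was at 22127 and 20695 TPM with Kdm3aHA, against 17510.3 and 17997 TPM with mCherry (0.27 ± 0.06, limma, adjusted p = 0.0196), where 1.54% of all genes were called higher and 9.29% lower (169 and 1018 genes, or 347 and 748 after scaling). The call was lost without Kdm3aHA replicate 1 (0.110), mCherry replicate 1 (0.180) or mCherry replicate 2 (0.103). Dnmt1 was at 47.4 and 49.3 TPM with Kdm3aHA, against 63.5 and 64.5 TPM with mCherry, -0.40 ± 0.12 with adjusted p = 0.0693, and 0.0248 when only these 4 libraries were fitted. Uhrf1 was at 50.4 and 59.9 TPM with Kdm3aHA, against 36.9 and 39.7 TPM with mCherry, 0.51 ± 0.15 with adjusted p = 0.0613, 0.0222 after scaling and 0.0389 with only these 4 libraries. Zfp57 was at 1690.2 and 1783 TPM with Kdm3aHA, against 2068 and 2003 TPM with mCherry, -0.23 ± 0.10 with adjusted p = 0.204, and 0.0337 with only these 4 libraries.

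Set against each other, Kdm3aWT and Kdm3aHA differed in Dnmt1, the 1 gene of 8 called, where 1.32% of all genes were called higher and 1.97% lower (145 and 216 genes, or 128 and 95 after scaling, which moved the median by 0.10). Dnmt1 was at 28.1 and 33.7 TPM with Kdm3aWT, against 47.4 and 49.3 TPM with Kdm3aHA, a fall of -0.63 ± 0.12 (adjusted p = 0.0313), or -0.51 after scaling (adjusted p = 0.0468). The call was lost without Kdm3aWT replicate 1 (0.112), Kdm3aHA replicate 1 (0.120) or Kdm3aHA replicate 2 (0.125), and with only these 4 libraries (0.119). Without Kdm3aWT replicate 2, Tet3 and Uhrf1 were called too, at -0.61 (0.0224) and -0.62 (0.0331). Dppa3 did not separate the 2 constructs, at 0.08 with an interval of -0.05 to 0.21. Kdm3a itself, injected RNA included, was at 4122 and 2315 TPM with Kdm3aWT and 4043 and 3907 TPM with Kdm3aHA. The lowest of these was Kdm3aWT replicate 2, and the part of these levels in the differences was not tested.

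**Figure D4:**
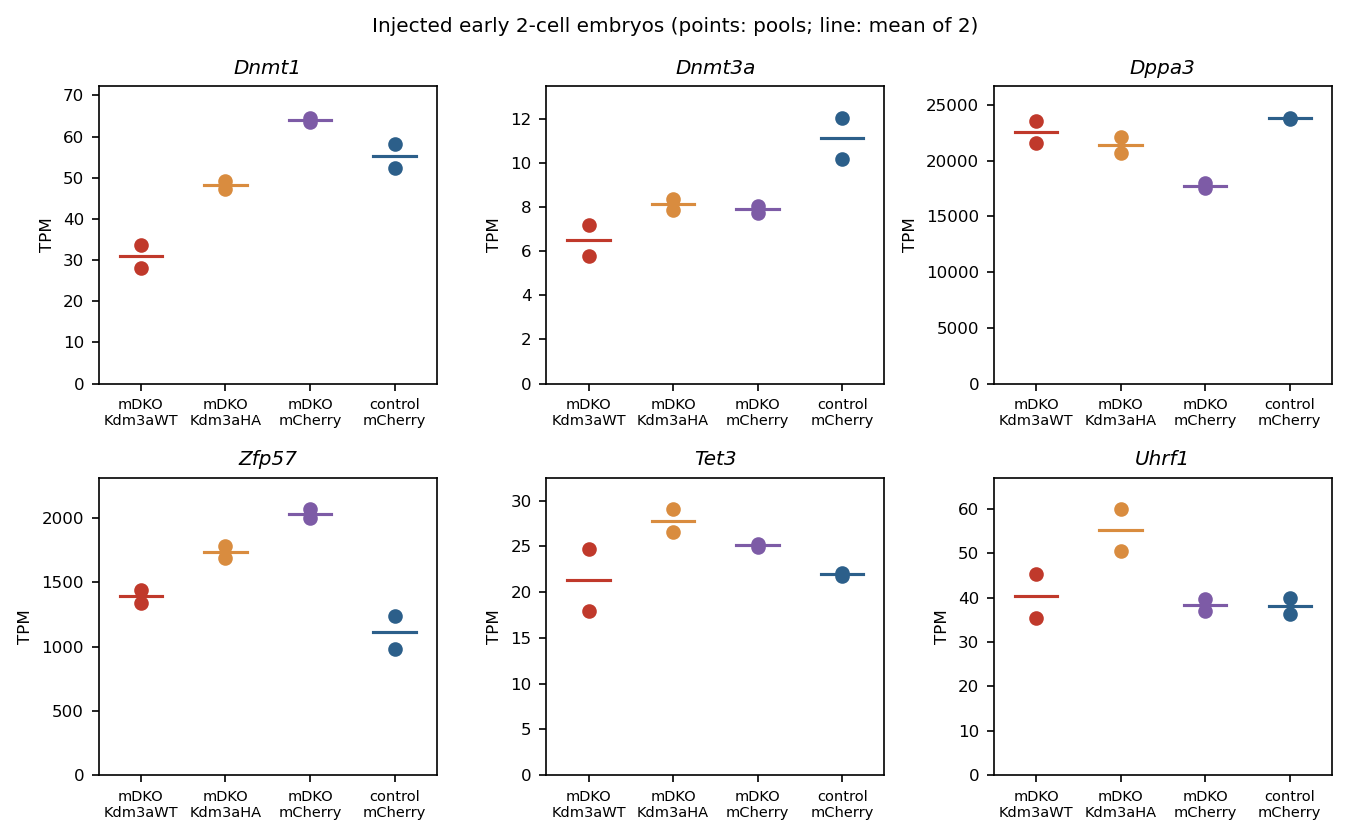
TPM (axis from 0) of Dnmt1, Dnmt3a, Dppa3, Zfp57, Tet3 and Uhrf1 in the 4 injected E2C groups, in the order mDKO with Kdm3aWT, mDKO with Kdm3aHA, mDKO with mCherry and control with mCherry; points are pools and lines are means of 2. Dnmt1 is lowest with Kdm3aWT (28.1 and 33.7 TPM), Dppa3 is lowest in mDKO with mCherry (17510.3 and 17997 TPM) and Zfp57 is highest there (2068 and 2003 TPM).

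In wild-type 4C embryos none of the 8 tested genes was called with Kdm3aWT or with Kdm3aHA against mCherry. Kdm3a was at 108 and 53.4 TPM with Kdm3aWT and 70.5 and 161 TPM with Kdm3aHA, against 21.8 and 6.24 TPM with mCherry. These levels lie below the 2315 to 4122 TPM of E2C embryos injected with Kdm3aWT or Kdm3aHA. Over all 9669 genes limma called 0 in both comparisons (0% higher and 0% lower), with 776 and 264 genes at an unadjusted p under 0.05. The median of all genes was 0.44 with Kdm3aWT and 0.35 with Kdm3aHA, and size-factor scaling moved it by -0.43 and -0.34. After scaling, the Kdm3aWT differences were 0.87 for Zfp57, 0.27 for Tet1, 0.12 for Dnmt1, -0.53 for Dnmt3l and -0.82 for Dppa3, none of them called. Dppa3 was again the most abundant member, at 20409 and 21642 TPM with Kdm3aWT, 17122 and 18807 TPM with Kdm3aHA and 18451 and 34758 TPM with mCherry, first or second among all genes in each library. The 2 mCherry pools differed most, and mCherry replicate 2 was also the library with the fewest genes at 1 TPM, 7649. Without mCherry replicate 1, Dppa3 was called lower with Kdm3aWT (-0.73, adjusted p = 0.0306) and with Kdm3aHA (-0.95, adjusted p = 0.0429), a contrast with that pool alone.

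Dnmt1, Uhrf1 and Tet3 were scarce at 4C. Dnmt1 had 3.30 and 3.07 TPM with Kdm3aWT, 1.56 and 4.94 TPM with Kdm3aHA and 2.88 and 1.296 TPM with mCherry. Uhrf1 had 2.00 and 0.675, 0.478 and 2.25, and 1.27 and 0.688 TPM in the same groups. Tet3 stayed at or below 0.324 TPM and Tet2 at or below 0.369 TPM in all 6 pools, and neither was tested. Tet1 had 6.23 and 5.30 TPM with Kdm3aWT, 4.98 and 6.32 TPM with Kdm3aHA and 3.91 and 2.48 TPM with mCherry, every injected Kdm3a pool above both mCherry pools (0.71 ± 0.51 and 0.68 ± 0.51, adjusted p = 0.589 and 0.843). Zfp57 had 17.8 and 14.1 TPM with Kdm3aWT, 6.30 and 10.8 TPM with Kdm3aHA and 7.28 and 4.23 TPM with mCherry (1.36 ± 0.54 with Kdm3aWT, adjusted p = 0.574). Dnmt3l had 29.0 and 32.5 TPM with Kdm3aWT, 40.2 and 45.0 TPM with Kdm3aHA and 30.0 and 31.0 TPM with mCherry. Dnmt3a lay between 3.89 and 6.94 TPM and Dnmt3b between 0.941 and 3.13 TPM over the 6 pools.

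Other genes of the pathway were read from a list of 60 readers, imprint protectors, oocyte factors and base excision repair genes, 58 of them in the tables. At MII 1 of 53 tested was called higher, where 0.845% of all genes were, and 0 lower, where 3.41% were. The gene was Kdm1b, the H3K4 demethylase that oocytes need for many imprints, at 162 and 172 TPM in mDKO oocytes, against 119 and 118 TPM in control oocytes (0.49 ± 0.08, limma, adjusted p = 0.0420). It was not called without mDKO replicate 1, mDKO replicate 2 or control replicate 2, and the median of the list was -0.07, beside -0.05 over all genes. The list had 0 genes called with no filter on low values and 0 without a trend in the variance.

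At E2C 7 of 51 were called higher and 3 lower in mDKO embryos, where 5.38% and 8.99% of all genes were, with a list median of 0.23 beside -0.01 over all genes. Trim28, the corepressor that ZFP57 recruits, was at 33.5 and 16.9 TPM in mDKO embryos, against 5.76 and 4.87 TPM in control embryos (1.98 ± 0.32, adjusted p = 0.00571). Smug1, a uracil DNA glycosylase of base excision repair, was at 23.2 and 11.4 TPM in mDKO embryos, against 5.67 and 4.54 TPM in control embryos. The genes called lower included Gadd45g, a stress-response gene that has been linked to demethylation, at 4.29 and 3.18 TPM in mDKO embryos, against 24.6 and 28.6 TPM in control embryos (-2.55 ± 0.24, adjusted p = 4.85e-04), and its relative Gadd45b (-1.84 ± 0.24). With no filter on low values the list had 3 genes called, 1 higher and 2 lower. Without control replicate 1 the list had 4 genes called and without control replicate 2 it had 3, and without mDKO replicate 2 or with replicate number as a block it had 17.

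At L2C 12 of 53 were called higher and 15 lower, where 19.1% and 23.3% of all genes were, shares near those of the list, with a list median of 0.01 beside -0.00 over all genes. Kdm1b was at 26.1 and 37.2 TPM in mDKO embryos, against 8.57 and 6.74 TPM in control embryos (adjusted p = 9.00e-04). Neil3, a DNA glycosylase, was at 43.7 and 55.9 TPM in mDKO embryos, against 13.5 and 15.4 TPM in control embryos (1.71 ± 0.18). Idh1, which makes the 2-oxoglutarate that TET enzymes use, was at 12.2 and 9.20 TPM in mDKO embryos, against 2.74 and 2.28 TPM in control embryos (1.73 ± 0.24). Parp1, which signals DNA breaks to the repair machinery, was lower, at 4.19 and 3.23 TPM in mDKO embryos, against 12.2 and 17.0 TPM in control embryos (-1.72 ± 0.25). Trim28, higher in mDKO embryos at E2C, was at 23.3 and 21.4 TPM in mDKO embryos and 54.6 and 59.0 TPM in control embryos at L2C. The mDKO effect on Trim28 went down between the 2 stages by 3.29 ± 0.34 (limma, adjusted p = 1.58e-04). That interaction contrast called 7 of 55 higher and 10 lower, where 13.2% and 12.5% of all genes were. The share called higher was near that of all genes. From MII to E2C the interaction contrast called 3 of 55 higher and 2 lower, where 1.72% and 2.16% of all genes were. That count of 5 went down without mDKO E2C replicate 1, either control E2C pool or any MII pool. It went up without mDKO E2C replicate 2.

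In the control stage comparisons, 12 of 55 were called higher and 31 lower at E2C than at MII, where 35.1% and 37% of all genes were. At L2C 16 were called higher and 23 lower than at E2C, where 35.5% and 30.1% of all genes were. Trim28 fell between MII and E2C, at 5.76 and 4.87 TPM at E2C and 613 and 603 TPM at MII in control (-6.59 ± 0.24, adjusted p = 1.67e-09), and Ddb1, an adaptor of the CUL4 ubiquitin ligase, was at 46.4 and 39.2 TPM at E2C and 1288 and 1263 TPM at MII (-4.87 ± 0.25).

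In injected E2C embryos 14 of 52 were called higher and 8 lower in mDKO mCherry than in control mCherry, where 26.9% and 20% of all genes were, so the share called higher was that of all genes. Khdc3, a maternal-effect gene of the subcortical complex of the oocyte, was at 19.4 and 18.7 TPM in mDKO mCherry, against 0.995 and 1.60 TPM in control mCherry embryos (3.14 ± 0.28, adjusted p = 6.23e-05). Trim28 was at 10.6 and 10.6 TPM in mDKO mCherry, against 3.59 and 4.12 TPM in control mCherry embryos (1.26 ± 0.24, adjusted p = 0.00276). With 1 mDKO mCherry pool left out the list had 12 (without replicate 1) or 13 (without replicate 2) genes called. Kdm3aWT against mCherry had 0 called higher and 6 lower, where 0.949% and 10.8% of all genes were called, and 2 higher and 3 lower after size-factor scaling. Kdm3aHA had 1 higher and 6 lower, where 1.54% and 9.29% of all genes were called, and 1 higher and 5 lower after scaling. Leaving out either mDKO mCherry pool gave 0 for Kdm3aWT and 1 for Kdm3aHA. Without Kdm3aWT replicate 1 or 2 the Kdm3aWT count was 3 or 10, and without Kdm3aHA replicate 1 or 2 the Kdm3aHA count was 2 or 4. Padi6, a maternal-effect gene of the oocyte cytoplasm, was among those lower with both constructs, at -0.58 ± 0.09 with Kdm3aWT (adjusted p = 0.00530) and -0.38 ± 0.09 with Kdm3aHA (adjusted p = 0.0309). Kdm3aWT against Kdm3aHA called 0 of 52 (1 after scaling, and more without Kdm3aWT replicate 2). Of all genes, 1.32% were called higher and 1.97% lower there. The 4C comparisons called 0 of 46, where 0% of all genes were called higher or lower.

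Over the 12 uninjected libraries the pattern of several members was shared closely with other genes. By Pearson's r of log2(TPM + 1) against 8532 genes with a mean of at least 5 TPM, the closest to Tet3 was Mtss1 (0.998) and the closest to Uhrf1 was Zar1, a maternal-effect gene of the oocyte (0.998). The closest to Dnmt1 was Tdrd5 (0.997), to Dnmt3b Tmcc3 (0.997), to Dppa3 Zfp120 (0.998), to Zfp57 Pms1 (0.988) and to Dnmt3l Ubxn6 (0.944). Among the members, the highest values were 0.982 for Dnmt3b with Tet3 and 0.980 for Tet3 with Uhrf1. These values are over 3 stages that differ in kit and in most genes, so many genes share them, and they are a description.

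Some identities bear on the counting. All 10 genes matched RefSeq symbols, and GENCODE M21 lists pseudogenes of Dnmt3a, Dnmt3l and Dppa3 that the tables do not hold, so the split of reads between Dppa3, Dnmt3a or Dnmt3l and these copies is uncertain. On GRCm38.p6, Dppa3 is at chromosome 6, 122626424 to 122630271, Zfp57 at chromosome 17, 37001163 to 37010729, Dnmt3l at chromosome 10, 78042287 to 78063622, and Dnmt1 at chromosome 9, 20907206 to 20959888. On the opposite strand, Aire shares 67 exonic bases with the 2988 of Dnmt3l and Dnmt3aos 133 with the 16642 of Dnmt3a. No source used here says whether counting used strand.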

How the data were processed

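The authors deposited 3 tables of TPM, 1 column per library. Per the submitters' processing notes, the tools included RSEM 1.3.1, STAR 2.7.10b, SAMtools 1.9 and Bowtie2 2.3.4.1 with the mm10 build, in roles not stated. No source used here gives the annotation, filters or strand setting. Library totals were 999986 to 1000000 TPM, which keeps no depth, so counting intervals are left out. All 26 columns matched 1 sample each by name.

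Tests used limma 3.58.1 in R 4.3.3 (lmFit, eBayes with trend, two-sided, Benjamini-Hochberg over all genes tested) on log2(TPM + 1), which understates changes of low genes, for genes at 1 TPM or more in at least 2 libraries of the fit. Uninjected mDKO and control pools of a stage were compared in a fit of those 4 libraries; stage and interaction contrasts used the 12 uninjected, and injected comparisons the 8 E2C or 6 4C libraries. An exact permutation test of 2 against 2 cannot go below 0.333. Members, lists, tests and alternatives were chosen with earlier results of these data known. All 10 members are described; other pathway genes are named only when called, at most 4 per comparison by size, at a mean of 5 TPM or more, and Trim28, Kdm1b and Padi6 are followed across comparisons after their values were seen. The code was tested on simulated data. Alternatives were a pseudocount of 0.1, no filter, size-factor scaling, eBayes without trend, a replicate block, another set of libraries in the fit, and leaving out each library.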

Additional observations from a re-analysis of the deposited data

Results flagged for a closer look

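The mDKO effect on Dnmt3l changed between MII and E2C, by -1.46 on the log2 scale in an interaction contrast (limma, adjusted p = 0.0117). In that contrast 1.72% of all genes were called higher and 2.16% lower. Every mDKO pool was higher at MII and every mDKO pool was lower at E2C. The lower level at E2C was itself not called (-0.35, interval -0.72 to 0.02, adjusted p = 0.191). The mDKO effect on Uhrf1 changed between E2C and L2C by 1.09 (adjusted p = 0.0253), with every mDKO pool higher at both stages. There 13.2% of all genes were called higher and 12.5% lower. Both interaction calls were lost when certain single libraries were left out.

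Dppa3 lay on opposite sides in the 2 experiments at E2C: the mDKO mean was 1.11 times the control mean without injection and 0.746 times with mCherry, with no overlap of pools in either. Its uninjected difference was not called (0.15, interval -0.06 to 0.35, limma, adjusted p = 0.324), whereas the injected one was (-0.42). Separation of 2 pools from 2, here and below, cannot go below 0.333 in an exact permutation test. Some genes moved in opposite directions with Kdm3a RNA in mDKO E2C embryos and in wild-type 4C embryos, with every pool on its side. The ratio of the Kdm3aWT mean to the mCherry mean was 0.483 at E2C and 1.53 at 4C for Dnmt1, 0.683 and 2.77 for Zfp57, and 0.782 and 1.81 for Tet1. The ratio of Kdm3aHA to mCherry for Tet1 was 0.836 at E2C and 1.77 at 4C, and Tet1 was under 1 TPM in the E2C pools. At 4C the median difference of all genes was itself 0.44 on the log2 scale with Kdm3aWT and 0.35 with Kdm3aHA. Unscaled, Dnmt1, Zfp57 and Tet1 had 0.49, 1.36 and 0.71 with Kdm3aWT at 4C, and Tet1 0.68 with Kdm3aHA. After size-factor scaling these were 0.12, 0.87 and 0.27 with Kdm3aWT and 0.33 for Tet1 with Kdm3aHA, smaller in each case. These opposite directions were not tested as differences, because each lies between tables made separately, and none of the 4C values passed a test. Pools injected with Kdm3aWT or Kdm3aHA held 2315 to 4122 TPM of Kdm3a at E2C and 53.4 to 161 TPM at 4C.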

How the results depend on the processing

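Of 1188 values of single genes recomputed under the alternatives, 1113 kept their side of the threshold, 43 of them uncalled values that changed sign; 56 called values lost their call, 19 gained one and 0 called values changed sign. Relative to the count itself, the larger moves in the number of the 10 genes called were as follows. Their cause was not tested. At MII (1) the count was 0 with no filter on low values, 0 without trend and 2 with the replicate block. At E2C (2) it was 0 with no filter and 0 without trend. At L2C (4) it was 2 without trend. For the E2C minus MII interaction (1) it was 2 after size-factor scaling, and for L2C minus E2C (1) it was 0 with no filter. For Kdm3aWT against mCherry at E2C (3) it was 1 without trend. For Kdm3aHA against mCherry (1) it was 0 with no filter, 2 after scaling, 0 without trend and 4 with only the 4 libraries compared. For Kdm3aWT against Kdm3aHA (1) it was 0 with no filter, 0 without trend and 0 with only the 4 libraries. Smaller moves were losses of Dppa3 at L2C with no filter, after scaling and with the replicate block. Dnmt3l was lost after scaling for E2C against MII in control. For Kdm3aWT against mCherry, Dppa3 was lost with no filter and Zfp57 after scaling. For mDKO mCherry against control mCherry, Dnmt3a was lost with a pseudocount of 0.1 and with no filter. With 1 library left out, where the lone pool is assumed to vary like the others, the counts were 0 to 1 at MII, 0 to 3 at E2C, 2 to 4 at L2C, 0 to 3 and 0 to 2 for the interactions, 1 to 4 for Kdm3aWT, 0 to 1 for Kdm3aHA, 0 to 3 between the constructs, and 0 to 1 in each 4C comparison. The replicate numbers pair nothing the labels name, and deviations of same-numbered pools correlated between -0.0968 and 0.301 over genes. With the replicate block, the list of other pathway genes had 11 called at MII against 1 and 17 at E2C against 10, Zfp57 was added at MII (adjusted p = 0.0468) and E2C (0.0346), Dppa3 was lost at L2C, and no other of the 10 genes changed its call. The 2 pools a group and the unknown depth limit every comparison, and Tet1 and Tet2 below 1 TPM could not be compared in several.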
